A study of Homo sapiens with 14 samples.

Results

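The immediate early and stress response genes described here are JUN, FOS, EGR1, ATF3, JUNB and DUSP1, 6 genes whose binding by the heat shock factors HSF1 and HSF2 was read from peak lists of chromatin immunoprecipitation and sequencing (ChIP-seq). A peak counted for a gene when it lay within 5 kb of the gene's hg19 span, which was given to the nearest kb. Of 117699 peaks in 12 lists, 28 met this rule, 15 of them in lists of HSF1 or HSF2 and 13 in lists of non-specific antibody (IgG). The genes were chosen by name with the tags and fold of their peaks in these same lists already known, so their counts and values are descriptions without a test.

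All libraries came from K562 cells, a human erythroleukemia line, which were freely cycling or had been arrested to mitosis. Each state was used without treatment (culture at 37 °C) and after 30 min at 42 °C. Each of these 4 conditions has 1 HSF1, 1 HSF2 and 1 IgG library, each from 10 pooled immunoprecipitations, and each cell state has 1 input library, labelled as heat-treated. Every list was called against an input, non-treated ones included. There are no replicates, so no condition can be tested, and a difference below is between 2 libraries. The labels do not give the agent of the mitotic arrest. A ChIP signal is an average over the pooled cells, so fewer bound cells and less binding per cell cannot be told apart.

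Immediate early genes are switched on within minutes of a growth or stress signal, without new protein synthesis, mostly through kinase cascades that act on factors already at their promoters. JUN, FOS and JUNB encode subunits of the AP-1 transcription factor, EGR1 a zinc finger factor, ATF3 a stress-induced bZIP factor, and DUSP1 a phosphatase that switches off MAP kinases. HSF1 is the main activator of chaperone genes under heat, and HSF2 is a related factor. Both bind as trimers to heat shock elements, which are built of GAA units in alternating orientation.

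Kept tags (reads after the authors' limit on duplicates) were fewest for IgG of mitotic cells without heat (2066373) and most for HSF2 of cycling cells without heat (28676943). Heat-treated mitotic IgG stood apart with 41184 peaks, the longest list. The 2 mitotic HSF1 libraries were shallower (6164898 kept tags without heat and 7385467 with heat) than those of cycling cells (14446547 and 16735990). Cell state and processing went together: 5 of the 6 cycling lists carry bwa in their alignment name and no mitotic list does, and the limit on duplicates was 1 per position in both mitotic HSF1 lists and 2 in the cycling ones. Differences between cycling and mitotic cells below therefore cannot be told apart from differences in processing. Values are tags in a peak per 1000000 kept tags (CPM), with a 95% exact Poisson interval in brackets that covers counting error only. Fold is the authors' deposited enrichment over input at the summit and is used to rank peaks within a list.

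The promoter sequences (RefSeq, GRCh38.p14, gene strand, 5′ to 3′, ending shortly after the gene start) are shown because 1 of the 6 promoters, that of JUN, holds a pair of GAA units in the arrangement of a heat shock element. The motifs GAANNTTC and TTCNNGAA read the same on both strands. In JUN the capitals mark GAATCTTC, a match to GAANNTTC, and further on TGACATCA, an AP-1-like site. DNAJB1, an HSP40 co-chaperone whose HSF1 peak was close in size to that of JUN, is shown by the entry that holds the most GAANNTTC matches, in capitals. In DUSP1 they mark TGACGTCA, a cAMP response element, and the TATAAA box. In EGR1 they mark CArG boxes, the elements of serum response factor. The stretches are chr1:58783998-58784297 (minus strand) for JUN, chr19:14518348-14518647 (minus) for DNAJB1, chr5:172771146-172771445 (minus) for DUSP1 and chr5:138465229-138465528 (plus) for EGR1.
JUN: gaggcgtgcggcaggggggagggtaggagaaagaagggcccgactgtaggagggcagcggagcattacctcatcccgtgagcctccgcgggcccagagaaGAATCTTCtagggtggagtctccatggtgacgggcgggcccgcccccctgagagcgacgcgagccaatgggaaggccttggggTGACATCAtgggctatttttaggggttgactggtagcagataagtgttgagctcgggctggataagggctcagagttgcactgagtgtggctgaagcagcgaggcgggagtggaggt
DNAJB1: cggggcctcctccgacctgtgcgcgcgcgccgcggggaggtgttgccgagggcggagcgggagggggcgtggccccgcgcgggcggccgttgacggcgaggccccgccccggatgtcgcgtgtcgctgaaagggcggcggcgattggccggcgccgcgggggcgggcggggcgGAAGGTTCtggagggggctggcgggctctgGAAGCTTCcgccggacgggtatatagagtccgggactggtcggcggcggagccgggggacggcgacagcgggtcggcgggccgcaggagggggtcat
DUSP1: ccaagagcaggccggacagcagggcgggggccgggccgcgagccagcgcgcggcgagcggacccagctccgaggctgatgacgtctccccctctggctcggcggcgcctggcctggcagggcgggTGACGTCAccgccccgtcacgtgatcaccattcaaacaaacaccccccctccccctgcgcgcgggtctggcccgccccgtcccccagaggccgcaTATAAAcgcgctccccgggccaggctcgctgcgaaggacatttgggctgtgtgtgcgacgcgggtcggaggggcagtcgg
EGR1: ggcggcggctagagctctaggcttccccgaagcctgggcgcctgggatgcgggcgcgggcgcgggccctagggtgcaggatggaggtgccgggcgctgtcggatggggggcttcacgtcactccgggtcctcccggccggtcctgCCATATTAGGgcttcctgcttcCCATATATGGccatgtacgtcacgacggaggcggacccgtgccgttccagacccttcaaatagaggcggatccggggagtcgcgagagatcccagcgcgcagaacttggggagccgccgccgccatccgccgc

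The JUN match starts 150 bases before the gene start. Entries were found for all 6 genes, with 2 for ATF3, and none but JUN held GAANNTTC or TTCNNGAA. Of all 35116 promoters of this length, 6.77% held GAANNTTC, 7.74% held TTCNNGAA and 13.5% held at least 1 of them. A match at 1 of 6 genes is near this share, so it does not set these genes apart. The share counts entries, while the counts of genes take a match in any entry of a gene. Among 11 chaperone genes, 8 had such a match in at least 1 of their entries (HSPA1A, HSPA1B, DNAJB1, HSPD1, HSPB1, HSPA8, HSP90AB1 and HSP90AA1). Among 23 other immediate early and stress genes, 18 had an entry and 0 a match. TGACGTCA was found in 1.85% of all promoters, TGACATCA in either orientation in 2.61%, TATAAA in either orientation in 11.5% and a CArG box in 1.29%. A match describes the letters in this window only.

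Without heat, cycling cells had no HSF1 or HSF2 peak at any of the 6 genes. In the HSF1 list 0 of 6 genes had a peak, where 1.93% of 14 kb tiles laid over all chromosomes held one, and in the HSF2 list 0 of 6 (0.396% of tiles). After heat, HSF1 peaks were found at 3 genes, JUN, ATF3 and DUSP1 (2.72% of tiles), and HSF2 peaks at 4, JUN, ATF3, JUNB and DUSP1 (1.88%). Heat-treated cycling IgG had none (1.77%), and non-treated cycling IgG had a peak at ATF3 only (6.42%). The window of ATF3 is 66 kb wide, and tiles of that width held a peak in 10% for HSF1 and 7.35% for HSF2 with heat, and in 21.4% for non-treated cycling IgG. Tiles include gene-poor sequence, so the counts for other genes given further on are the closer comparison. Shares also differed by chromosome. After heat, HSF1 had a peak in 4.65% of 14 kb tiles of chromosome 1 (JUN, ATF3), 2.20% of chromosome 5 (EGR1, DUSP1) and 7.46% of chromosome 19 (JUNB). For HSF2 these shares were 3.29%, 1.49% and 5.73%.

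In mitotic cells the counts were 1 gene for HSF1 without heat (ATF3, 1.43% of 14 kb tiles and 4.87% of 66 kb tiles) and 0 with heat (1.64%). HSF2 had peaks at 3 genes without heat, JUN, EGR1 and ATF3 (7.43% of 14 kb tiles, 23% of 66 kb tiles), and at DUSP1 alone with heat (3.31%). Without heat the HSF2 share of 14 kb tiles was 14.8% for chromosome 1 (JUN, ATF3) and 6.66% for chromosome 5 (EGR1). Peaks of heat-treated mitotic IgG lay at 5 of the 6 genes, all but FOS (12.8% of 14 kb tiles, 33.2% of 66 kb tiles). By chromosome its share of 14 kb tiles was 22.9% for chromosome 1, 11.9% for chromosome 5 and 36.3% for chromosome 19. Heat-treated mitotic IgG alone held 12 of the 28 peaks. Non-treated mitotic IgG had peaks at 0 genes (0.579%). The smallest peak of that list was 2.90 CPM, above every value of the other mitotic lists at these genes. Such levels would not be listed there, so the 0 does not show a lower IgG signal. When overlapping peaks were joined, the 6 genes had 17 regions, of which 7 had IgG peaks only, 5 had both kinds and 5 had HSF peaks only.

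**Figure D1:**
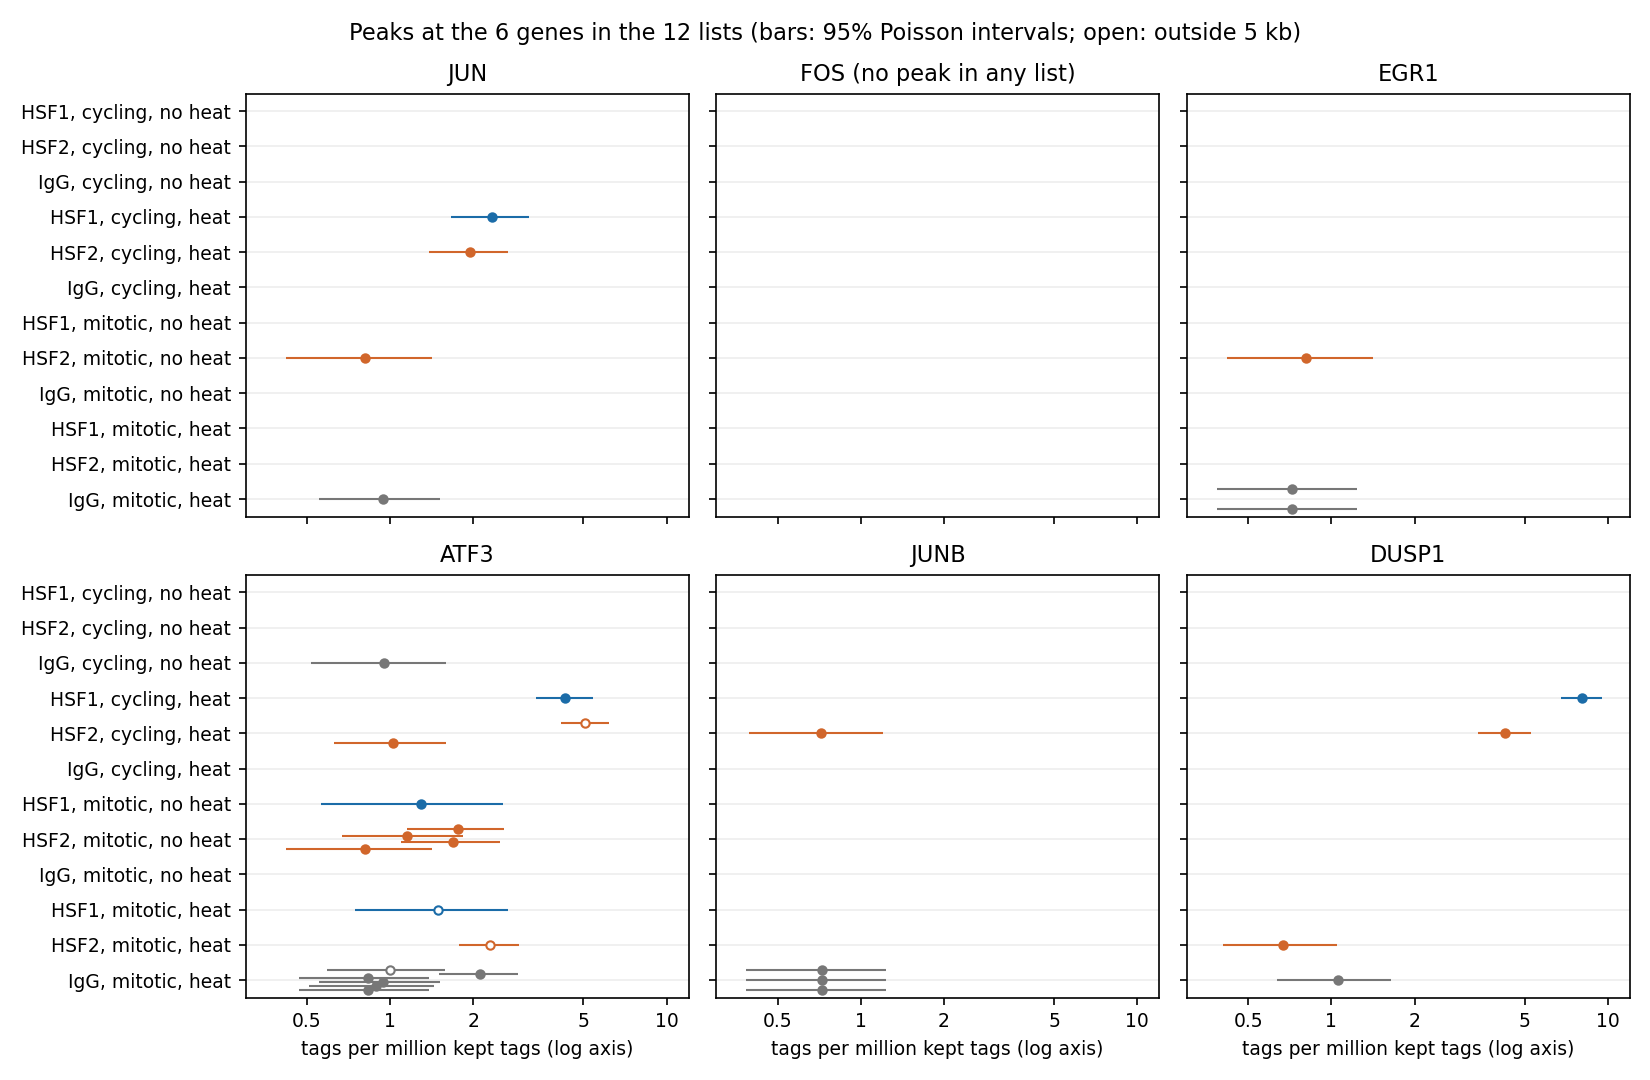
CPM of every peak at the 6 genes (log axis) by library, with 95% Poisson intervals; filled points lie within 5 kb of the gene and open points are peaks just outside it that overlap a peak within it. DUSP1 reaches 8.07 CPM for HSF1 in heat-treated cycling cells, FOS has no peak in any list, and at EGR1 and JUNB no point exceeds 0.812 CPM.

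DUSP1, the MAP kinase phosphatase gene, had the strongest peaks of the 6 genes. In heat-treated cycling cells HSF1 had 135 tags at chromosome 5, 172198992 to 172200279 (8.07 CPM, 6.76 to 9.55), with a fold of 24.41. This peak was number 21 of 6447 by fold. HSF2 had 83 tags at 172199102 to 172200111 (4.26 CPM, 3.39 to 5.28), with a fold of 15.0, number 47 of 4315. The summits were 31 bp apart. The DUSP1 gene is on the minus strand, and the HSF1 summit lay 1682 bp upstream of the 5′ side of its span, whose position is known to the nearest kb. It is therefore outside the promoter stretch printed for DUSP1. No IgG list and no non-treated list had a peak at this site.

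The fold minimum of 10, at which 0.133% of 14 kb tiles held an HSF1 peak and 0.0751% an HSF2 peak in heat-treated cycling cells, was passed by HSF1 at DUSP1 alone and by HSF2 at DUSP1 and JUN. The JUN folds were 9.69 for HSF1 and 10.08 for HSF2, close to the minimum on either side. Passing it does not set the factors apart at JUN. At DUSP1 the HSF1 value was 1.89 times the HSF2 value (1.43 to 2.52, exact conditional interval for counting error). Where this stands depends on how the reference peaks are chosen. The 280 shared peaks with an HSF1 fold of 10 or more had a median ratio of 1.49 (10th to 90th percentile 1.02 to 2.17), and 53 were at or above DUSP1. The 155 shared peaks with an HSF2 fold of 10 or more had a median of 1.22 (0.828 to 1.69), and 5 were at or above DUSP1. Choosing by a factor's fold favours that factor, and DUSP1 passes both filters.

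At JUN, both factors had a modest peak at the 5′ side of the gene after heat. HSF1 had 39 tags at chromosome 1, 59249297 to 59250323 (2.33 CPM, 1.66 to 3.19, fold 9.69), number 296 by fold. HSF2 had 38 tags at 59249558 to 59250248 (1.95 CPM, 1.38 to 2.68, fold 10.08), number 148 by fold. The summits, at 59249825 and 59249843, were 18 bp apart and lay 175 and 157 bp inside the 5′ side of the span, again known to the nearest kb. The ratio of HSF1 to HSF2 was 1.19 with an interval of 0.744 to 1.92 that includes 1. The peak lies at the end of the gene where the printed promoter with GAATCTTC is, but the peak is placed in hg19 and the sequence in GRCh38, so the distance between summit and motif was not measured.

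JUN also had a peak in 2 mitotic libraries, shifted into the gene. Non-treated mitotic HSF2 had 12 tags at 59248865 to 59249461 (0.812 CPM, 0.419 to 1.42, fold 2.46), and heat-treated mitotic IgG had 17 tags at 59248970 to 59249702 (0.945 CPM, 0.551 to 1.51, fold 3.17). Both values were under those of the heat-treated cycling peaks, but only the interval of cycling HSF1 lay apart from them, while that of cycling HSF2 overlapped both. The IgG summit was 385 bp from the HSF1 summit. No HSF1 list of mitotic cells had a peak at JUN, with or without heat, and neither had heat-treated mitotic HSF2. Levels under the smallest peaks of the heat-treated mitotic lists (1.22 CPM for HSF1, 0.565 CPM for HSF2) would not be listed.

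ATF3 had its strongest HSF1 peak upstream of the gene, at the edge of the window. In heat-treated cycling cells HSF1 had 72 tags at chromosome 1, 212731504 to 212733349 (4.30 CPM, 3.37 to 5.42, fold 8.22), number 433 by fold, and its summit lay 5524 bp upstream of the 5′ side of the span. The nearest base of this peak was 4651 bp from the span, inside the limit of 5 kb. In the same cells an HSF2 peak at this site missed the limit by a few bases, at 5007 bp: 212731437 to 212732993, with 99 tags (5.08 CPM, 4.13 to 6.19) and a fold of 10.62. The summits were 18 bp apart. Here HSF1 did not exceed HSF2, with a ratio of 0.846 (0.616 to 1.16). This site passes the HSF2 filter only, and 20 of the 155 shared peaks chosen by HSF2 fold had a ratio that low or lower.

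The same upstream site carried mitotic peaks after heat, all just beyond 5 kb. HSF2 had 65 tags at 212731468 to 212732858 (2.30 CPM, 1.77 to 2.93, fold 5.77). HSF1 had 11 tags at 212731614 to 212732240 (1.49 CPM, 0.744 to 2.66, fold 1.65). IgG of the same cells had 18 tags at 212731932 to 212732668 (1.00 CPM, 0.593 to 1.58, fold 2.49). HSF2 was 2.29 times IgG (1.34 to 4.11) and HSF1 1.49 times IgG (0.635 to 3.33), so HSF1 was not above IgG beyond counting error. Against cycling cells, mitotic HSF2 was at 0.452 (0.325 to 0.624) and mitotic HSF1 at 0.346 (0.165 to 0.657). Peak widths differed, and per kb of peak width the ratio of mitotic to cycling HSF1 was 1.02 and that of mitotic HSF2 to IgG 1.22. The HSF2 and HSF1 summits of mitotic cells were 557 and 482 bp from those of cycling cells, and the IgG summit was 264 bp from the cycling HSF1 summit. No non-treated list had a peak at this site.

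**Figure D2:**
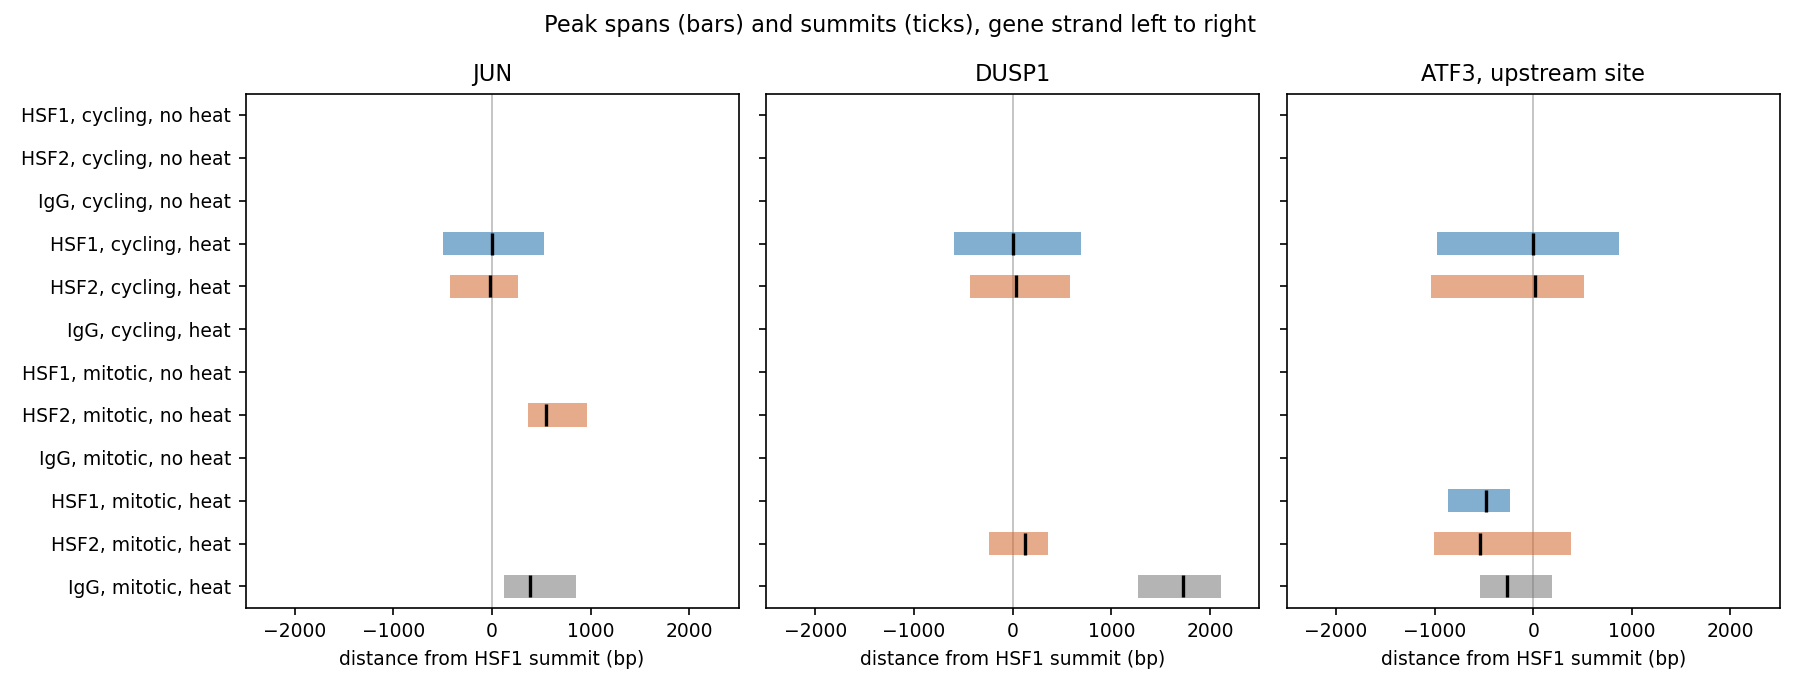
Spans (bars) and summits (ticks) of the peaks around the heat-treated cycling HSF1 summit at JUN, DUSP1 and the ATF3 upstream site, as distance in bp along the gene strand, by library. In heat-treated cycling cells the HSF1 and HSF2 summits are 18, 31 and 18 bp apart, while the IgG peak of heat-treated mitotic cells overlaps the site at JUN and ATF3 and lies apart from it at DUSP1.

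The other peaks in the ATF3 window were at most 2.11 CPM, below the upstream peaks of heat-treated cycling cells. Some ranked high in their own lists. By fold the non-treated mitotic HSF2 peak of 17 tags was number 1107 of 19866, and the IgG peak of 38 tags was number 2357 of 41184. Heat-treated cycling HSF2 had a peak within the gene at 212779681 to 212780501 (20 tags, 1.03 CPM, 0.627 to 1.59, fold 3.42). Non-treated mitotic HSF2 had 4 peaks, of 26, 17, 25 and 12 tags, and heat-treated mitotic IgG had 5, of 38, 15, 17, 16 and 15 tags. The region of the cycling HSF2 peak held both of these, with 2.11 CPM of IgG (1.50 to 2.90) and 1.76 CPM of non-treated mitotic HSF2 (1.15 to 2.58). Non-treated mitotic HSF1 had 8 tags at 212796579 to 212797139, beyond the 3′ side of the gene. That is the fewest tags of any peak in its list.

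EGR1 and JUNB had no HSF peak above the smallest sizes in the lists. At EGR1 the only HSF peak was that of non-treated mitotic HSF2 at chromosome 5, 137800714 to 137801305, with 12 tags (0.812 CPM, 0.419 to 1.42, fold 2.11). Heat-treated mitotic IgG had a pair of peaks of 13 tags each around it (0.723 CPM, 0.385 to 1.24). At JUNB, heat-treated cycling HSF2 had 14 tags at chromosome 19, 12901915 to 12902478 (0.719 CPM, 0.393 to 1.21, fold 4.27), the fewest tags of any peak in that list. It overlapped 1 of 3 heat-treated mitotic IgG peaks at JUNB, all of 13 tags. HSF1 had no peak at either gene in any list.

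FOS had no peak within 5 kb in any of the 12 lists. The nearest peak of any list lay 208.605 kb away, in heat-treated mitotic IgG, and the nearest HSF1 peak after heat in cycling cells lay 1054 kb away. Chromosome 14, which holds FOS, was poor in peaks in these libraries. Heat-treated mitotic IgG had a peak in 3.46% of the 14 kb tiles of chromosome 14, against 12.8% over all chromosomes, and heat-treated cycling HSF1 in 0.926% against 2.72%. The HSP90AA1 gene on the same chromosome had an HSF1 peak of 44 tags (2.63 CPM, fold 13.18) in the latter library. The role of the chromosome's low number of peaks in the result for FOS was not tested.

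The comparison of mitotic with cycling cells showed DUSP1 as an exception among the strongest HSF1 peaks. HSF1 had no heat-treated mitotic peak at DUSP1. All 20 peaks of higher fold in heat-treated cycling cells had one, as had the 10 next below, so DUSP1, number 21, was the first in the order of fold to lack it. The next without one was number 32 (fold 21.63). At the 20 peaks of higher fold the mitotic value was 0.192 to 0.985 of the cycling value, with a median of 0.431. Of these 20, 5 also had a heat-treated mitotic IgG peak and 15 had none.

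The missing DUSP1 peak has a limit set by depth. The cycling value of 8.07 CPM would amount to 59.6 tags in the heat-treated mitotic HSF1 library, and the smallest peak in that list had 9 tags (1.22 CPM). Tags at sites without a peak are not listed, so a lower level cannot be given. By CPM in place of fold, 18 of 19 other peaks of fold 10 or more with at least the CPM of DUSP1 had a heat-treated mitotic peak. Among the 285 HSF1 peaks that reached a fold of 10, 157 (55.1%) had one. JUN, with a fold of 9.69, had none, and 7 of its 20 neighbours in rank had one. At the median ratio of the 20 stronger peaks, the JUN value of 2.33 CPM in cycling cells would fall below the smallest peak of 1.22 CPM.

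HSF2 had a weak peak at DUSP1 in heat-treated mitotic cells, with 19 tags at 172199320 to 172199926 (0.671 CPM, 0.404 to 1.05, fold 4.23). This was 0.158 of the cycling HSF2 value (0.0903 to 0.262), and 0.262 of it per kb of peak width. Its summit was 90 bp from that of cycling cells. The heat-treated mitotic IgG peak at DUSP1, with 19 tags (1.06 CPM, 0.636 to 1.65), lay apart, at 172197567 to 172198406, and its summit was 42 bp from the 5′ side of the span. Among 47 other HSF2 peaks whose fold was no lower than that of DUSP1, 39 had a heat-treated mitotic HSF2 peak, at 0.102 to 0.418 of the cycling value with a median of 0.210. DUSP1 was within this range. Its mitotic HSF2 value of 0.671 CPM was below the smallest peak of the heat-treated mitotic HSF1 list (1.22 CPM). HSF1 at that level would not be listed, so the lists do not show that the factors differ here.

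**Figure D3:**
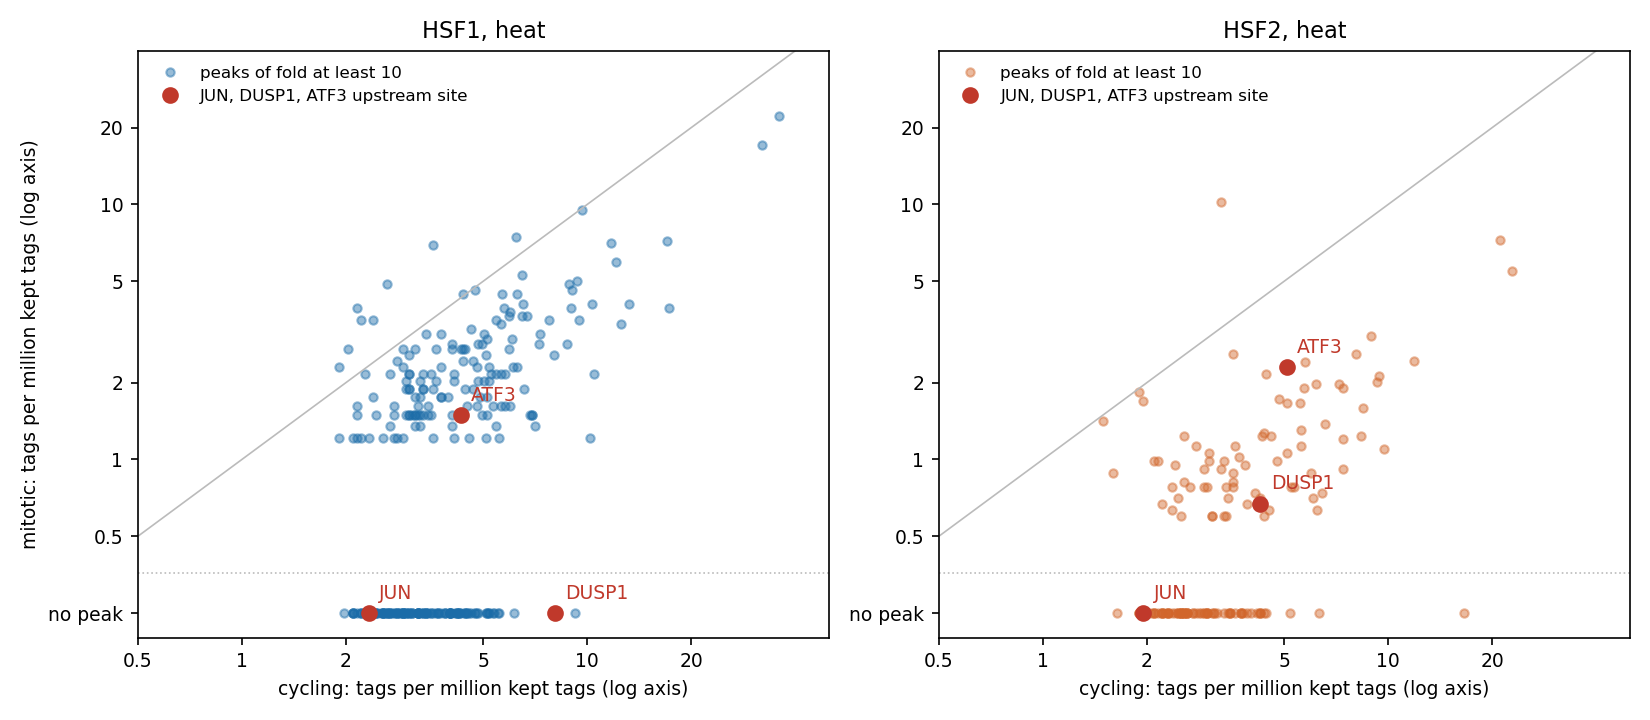
CPM in heat-treated mitotic against heat-treated cycling cells (log axes) for peaks that reached a fold of 10 in cycling cells and for JUN, DUSP1 and the ATF3 upstream site, by antibody; the line marks equal values and the bottom row holds sites with no mitotic peak. DUSP1 is in the bottom row for HSF1 at 8.07 CPM and at 0.671 mitotic CPM for HSF2, and JUN is in the bottom row for both.

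The other genes of the response, 23 genes placed with hg19 spans set by hand to the nearest kb, had weaker HSF peaks than JUN and DUSP1 in heat-treated cycling cells, but not in mitotic cells. They comprise AP-1 partners, an EGR and a nuclear receptor gene, other immediate early genes, MAP kinase phosphatases, the factor SRF and genes of growth arrest and the integrated stress response. In heat-treated cycling cells HSF1 had a peak at 1 of 23, IER2, an immediate early gene (highest fold 3.88, 13 tags). HSF2 had peaks at 2 of 23, GADD45B (fold 2.86, 16 tags), a growth arrest gene, and PPP1R15A, which encodes a regulatory subunit of the phosphatase that restores translation after stress. PPP1R15A, named after its values were seen, had 4 HSF2 peaks of 14 to 21 tags and no peak in any other list. No HSF list without heat in cycling cells had a peak at any of the 23.

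Over all 8 HSF lists, 9 of these 23 genes had a peak, and their folds ran from 2.46 to 4.58 with 10 to 21 tags. The highest folds by role were 4.58 for the AP-1 subunit FOSL1 and 4.23 for GADD45B, both in heat-treated mitotic HSF2. They were 3.75 for SRF in the same list and 2.46 for EGR2 in non-treated mitotic HSF2. Folds of different lists are not on the same scale. The median fold of all peaks was 3.87 in heat-treated mitotic HSF2 and 1.36 in heat-treated mitotic HSF1. In heat-treated mitotic HSF2 the DUSP1 peak (fold 4.23, 19 tags) was close in size to those of FOSL1 (18 tags) and SRF (20 tags). It was lower than FOSL1 by fold and higher by tags, and the reverse held for SRF. In non-treated mitotic HSF2, FOSL1 had 15 tags (fold 3.52) where JUN had 12 (fold 2.46). The MAP kinase phosphatases of the list had no HSF peak. In heat-treated mitotic cells, 18 of the 23 had an IgG peak, where 5 of the 6 genes had one, and 4 had an HSF2 peak.

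**Figure D4:**
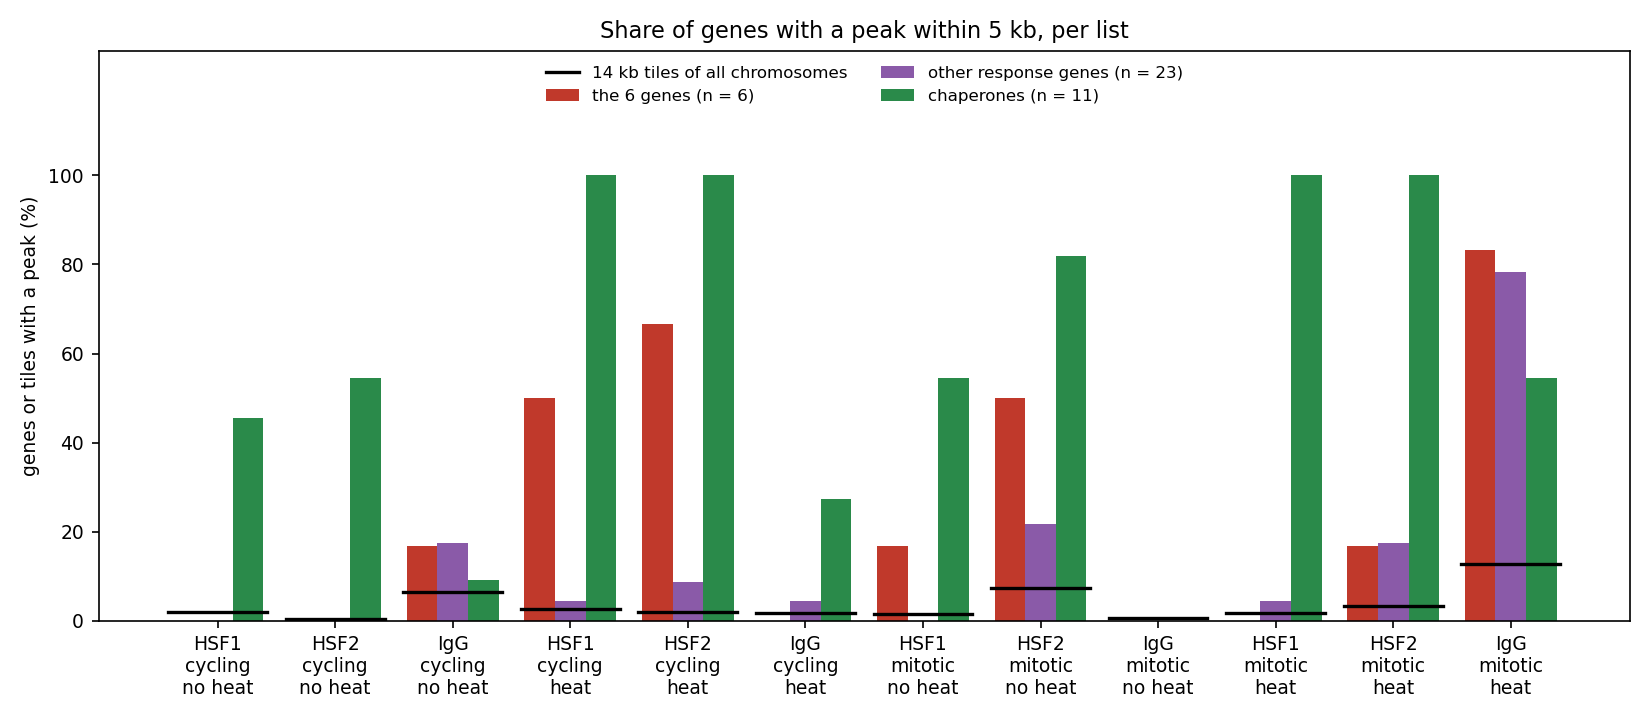
Percent of genes with a peak within 5 kb in each of the 12 lists, for the 6 genes, 23 other response genes and 11 chaperone genes; the black lines give the percent of 14 kb tiles over all chromosomes with a peak. In heat-treated cycling HSF1 the counts are 3 of 6, 1 of 23 and 11 of 11, and in heat-treated mitotic HSF1 they are 0 of 6, 1 of 23 and 11 of 11.

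Chaperone genes, the known targets of HSF1, had peaks at 11 of 11 genes in all 4 heat-treated HSF lists (HSPD1 and HSPE1 share theirs). In these lists 1.64% to 3.31% of 14 kb tiles held a peak. IgG had peaks at 3 of 11 in heat-treated cycling cells and at 6 of 11 in heat-treated mitotic cells. For each gene's highest peak in heat-treated cycling cells, HSF1 ranged from 2.21 CPM at DNAJB1 to 35.9 CPM at HSPA1B, with a median of 7.77. HSF2 ranged from 1.49 at HSP90AA1 to 22.7 at HSPA1A, with a median of 7.19. These medians are over 11 genes with 10 distinct peaks, as the peak shared by HSPD1 and HSPE1 counts for both. The HSF2 median by CPM is the value of that shared peak. The DUSP1 value was above the chaperone median by CPM of HSF1 (8.07) and below it by CPM of HSF2 (4.26). By fold it was below for both factors: HSF1 had 24.41 at DUSP1 and a chaperone median of 29.5, and HSF2 had 15.0 and a median of 19. The JUN value of 2.33 CPM of HSF1 was near the lowest chaperone. DNAJB1 (2.21 CPM, fold 9.63) and BAG3 (2.81 CPM, fold 15.9), a co-chaperone gene, had heat-treated mitotic HSF1 peaks of 18 tags each (2.44 CPM, 1.44 to 3.85). DUSP1 and JUN had none, within the limits of depth given above. Without heat in cycling cells, 5 of 11 chaperone genes had an HSF1 peak and 6 of 11 an HSF2 peak. For mitotic cells without heat the counts were 6 of 11 and 9 of 11.

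**Figure D5:**
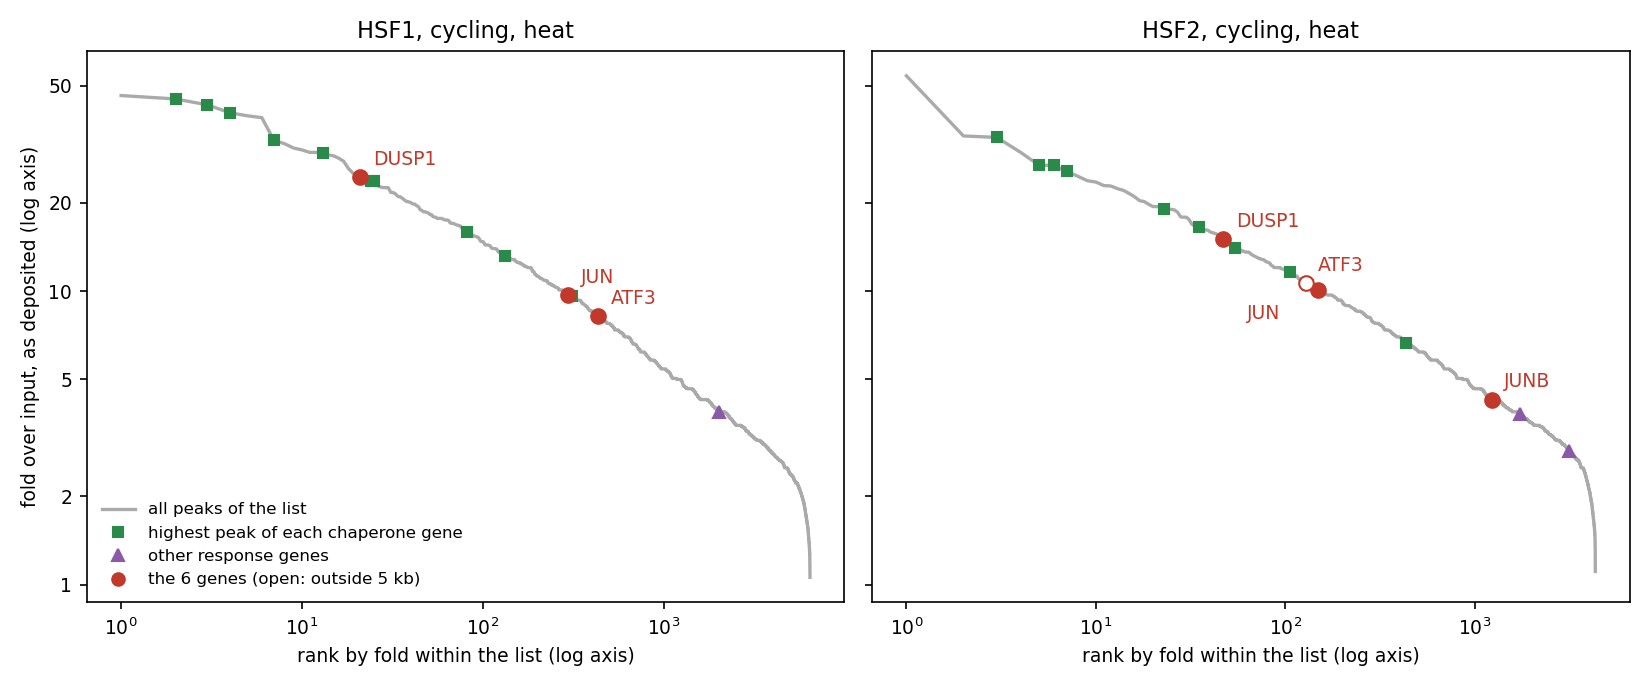
Deposited fold over input against rank (both log axes) for all peaks of heat-treated cycling HSF1 and HSF2, with the highest peak of each of the 6 genes, the other response genes and the chaperone genes marked (open circle, the ATF3 upstream peak just outside 5 kb). DUSP1 is number 21 for HSF1 and number 47 for HSF2, among the chaperone genes; JUNB, at a fold of 4.27, is with the other response genes.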

How the data were processed

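ChIP DNA was sequenced and only the peak lists were used here; the inputs enter through them. The submitters' processing notes name Bowtie, MACS 1.4 and the build hg19. File headers give MACS 1.4.1 with a p cutoff of 1e-05, and 5 of 12 lists carry bwa in the alignment name, which the notes do not mention. Tags in a peak are counts as deposited by the authors. A peak's deposited score is a scaled −log10 p-value, its fold is a deposited ratio of ChIP to expected input tags, and its FDR is a percent as deposited.

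From the lists, peaks near the genes were taken by interval, CPM was computed from kept tags in the headers, ratios received exact conditional binomial intervals, and tiles were laid end to end up to the last peak of each chromosome. The members and lists were chosen with earlier results of these data known. Named with values are the 6 genes, and other genes only with an HSF fold of at least 10 or the highest fold of their role; BAG3, DNAJB1, HSP90AA1 and PPP1R15A with their values were picked after the values were seen. The comparison of HSF1 with HSF2, of sites by fold rank and of chromosome 14 was also added then. Hand-set spans matched RefSeq (GRCh38.p14) by chromosome in 34 of 34 and by length within 2 kb in 31, all but NR4A1, SGK1 and DNAJB1. Their hg19 positions were not checked. The steps were tested on simulated lists. Intervals came from scipy 1.17.1 and tables from pandas 2.3.3, under Python 3.11.15; matplotlib 3.10.9 drew the figures.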

Additional observations from a re-analysis of the deposited data

How the results depend on the processing

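Counts of the 6 genes with a peak were recomputed with other distances, by summit and with limits on fold, score or FDR. They were also recomputed without peaks that overlap matched IgG. Of these 104 counts, 38 could not move, being lists at 0 under settings that only remove peaks. Of the other 66, 42 stayed within 1.5 times the value in the report, but not all of these were free to move. Every peak within 5 kb of the 6 genes had an FDR of at most 4.19%, so the FDR setting removed none. Heat-treated cycling IgG and non-treated mitotic IgG had no peak at these genes, so leaving out overlaps with them could remove none. With a fold of at least 5, heat-treated cycling HSF2 had 2 genes, and non-treated cycling IgG, both non-treated mitotic HSF lists, heat-treated mitotic HSF2 and heat-treated mitotic IgG had 0. With a fold of at least 10, heat-treated cycling HSF1 had 1 gene, HSF2 2, and the same 5 lists 0. With a score of at least 100, heat-treated cycling HSF2 and heat-treated mitotic IgG had 2 genes each, non-treated mitotic HSF2 1, and non-treated cycling IgG and heat-treated mitotic HSF2 0. With no distance, heat-treated cycling HSF1 had 1 gene, and non-treated mitotic HSF1 and heat-treated mitotic HSF2 had 0. With 2 kb, non-treated mitotic HSF1 had 0. With 10 kb, heat-treated mitotic HSF1 had 1 gene and HSF2 had 2, both through the ATF3 upstream site, which the distance alone brings in.

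At JUN the ratio of HSF1 to HSF2 was 1.19 by CPM and 0.804 per kb of peak width. The order of HSF1 and HSF2 at JUN turned with the depth-scaled fold (fold times input over ChIP kept tags), from 0.961 to 1.12. At the ATF3 upstream site mitotic over cycling HSF1 became 1.02 per kb of peak width, since the mitotic peak is narrower, and mitotic HSF1 over IgG went from 0.663 by fold to 1.61 by depth-scaled fold. Total tags in place of kept tags changed no direction among the ratios. No paired analysis was possible because each group has 1 library.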
